A study of Mus musculus with 9 samples.

Results

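Complement is a set of plasma proteins, receptors and regulators, and its messenger RNAs were measured here in whole mouse liver. The genes described are 33 components, receptors and regulators of complement, chosen by gene symbol, and all 33 were found, each under a unique symbol, among the 34745 genes of the count table. They were divided by the cell best known to make them into 22 hepatocyte-made genes, 7 macrophage-made genes and 4 of other or mixed source. Libraries came from livers of C57BL/6 mice in 3 groups of 3. Mice of the sulodexide group and of the vehicle group both drank water with thioacetamide (TAA), a hepatotoxin used to cause liver fibrosis, at 400 mg/L for 16 weeks. From week 13, over the last 4 weeks and with TAA continued, they received daily either sulodexide, a mixture of glycosaminoglycans given as an antithrombotic drug, or vehicle. The third group is labelled control, and the labels do not say whether it received vehicle, how sulodexide was given, the sex or age of the animals, or whether each library is from a separate mouse. P-values therefore measure the spread between libraries, which may be partly technical.

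Complement is switched on along the classical pathway by C1q, along the lectin pathway by mannose-binding lectins, ficolins and collectins, and along the alternative pathway by slow turnover of C3. All routes meet at the cleavage of C3 and then C5, after which C6, C7, C8 and C9 assemble into the membrane attack complex, while soluble and membrane-bound regulators limit the cascade. The liver is the main source of the plasma components: hepatocytes make most of them, whereas C1q, properdin and the receptors for the fragments C3a and C5a belong mainly to macrophages and other myeloid cells.

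Total counts were 13803697 to 16655951 per library, and levels are given as CPM, which are counts scaled to a common library size, after TMM scaling, which corrects totals for a difference in makeup between libraries. All 33 members passed the filter on low counts, and C5ar1 did so without reaching the filter's 0.665 CPM in every control library. A gene is said to have risen or fallen when its Benjamini-Hochberg adjusted p in the quasi-likelihood test of edgeR, over 13701 genes, was below 0.05. The groups differed in makeup: scaling by library totals moved the median log2 difference of all tested genes in TAA + vehicle against control to 0.41, against 0.01 with TMM. Hepatocyte markers were detected at high levels in every library. Markers of other cells also moved: in TAA + vehicle against control 5 of 5 myofibroblast, 4 of 6 stellate cell and 4 of 4 cholangiocyte markers rose and 1 of 5 sinusoidal endothelial markers fell, and in TAA + sulodexide against TAA + vehicle 2, 1, 4 and 0 of these markers fell and none rose. Some of these markers, such as Timp1 with a mean of 0.03 CPM in controls, passed the filter on low counts only through TAA libraries. In a whole-tissue library fewer cells of a type and less RNA per cell cannot be told apart.

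In livers given TAA and vehicle, the messages of hepatocyte-made complement were lower than in control livers and those of macrophage-made complement were higher. Of the 22 hepatocyte-made genes 16 fell and none rose, and their median log2 difference was -0.86. Of the 7 macrophage-made genes 5 rose and none fell, with a median of 1.43. Over all 33 members 5 rose, 17 fell and 11 passed in neither direction. Among all genes tested 23.1% rose and 20.4% fell, or 43.4% in either direction, with a median difference of 0.01. With scaling by totals 9 members rose and 12 fell, 11 of these hepatocyte-made, where 42% of all genes rose and 8.44% fell. Of the 33 members 26 had no overlap between the vehicle and control libraries, as did 56.8% of all tested genes.

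**Figure D1:**
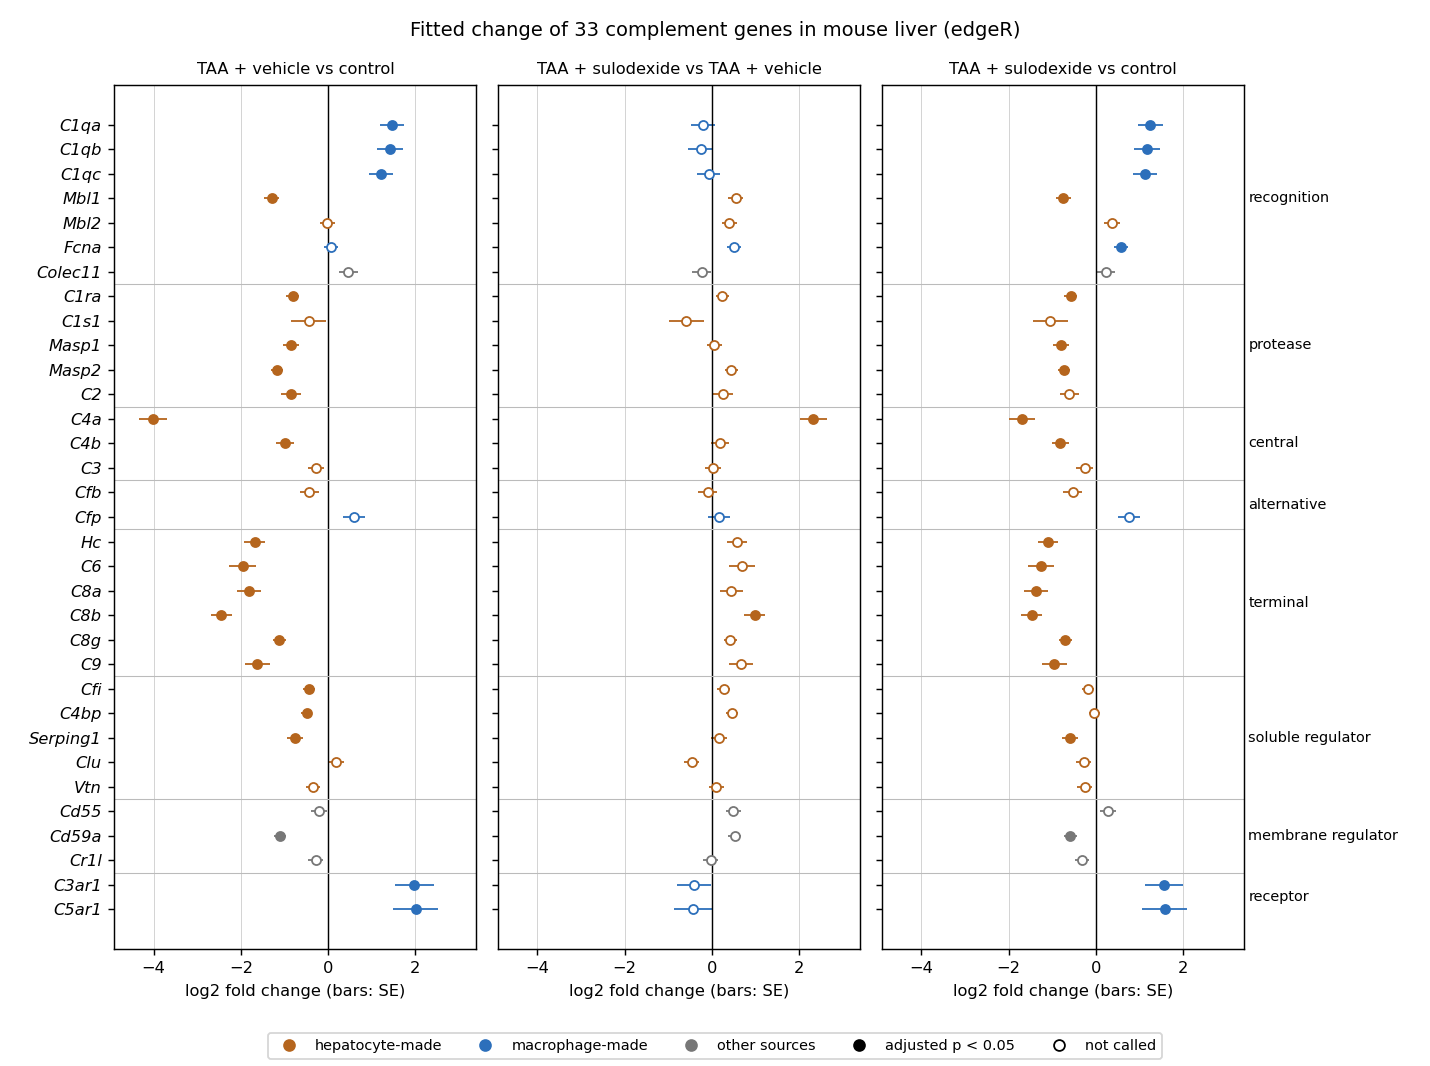
Log2 difference of each of the 33 complement genes, one row per gene, in panels from left to right for TAA + vehicle against control, TAA + sulodexide against TAA + vehicle and TAA + sulodexide against control, with bars of 1 standard error of the edgeR fit and filled points where the adjusted p was below 0.05. In TAA + vehicle against control the hepatocyte-made genes lie mostly left of 0 and reach -4.01 for C4a, and the macrophage-made genes lie to the right, up to 2.01 for C5ar1.

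The terminal components build the membrane attack complex, and the 6 among the members fell in TAA + vehicle livers, with a median log2 difference of -1.75. C8b encodes the beta chain of C8 and was at 81.3, 148 and 104 CPM in vehicle libraries 1 to 3, against 525, 577 and 712 CPM in control libraries 1 to 3. Every vehicle library lay below every control library. The difference was 5.45-fold (log2 -2.45, SE 0.25, adjusted p = 5.18e-05 with edgeR). C6, whose product binds C5b to start the assembly, stood at 83.7, 161 and 137 CPM in vehicle libraries, against 491, 448 and 546 CPM in control libraries. It was 3.89-fold lower (log2 -1.96, SE 0.30, adjusted p = 0.000755), again with no overlap.

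For C8a, the alpha chain that inserts into the membrane, the vehicle libraries held 175, 169 and 251 CPM and the control libraries 781, 760 and 559 CPM. The fall was 3.53-fold (log2 -1.82, SE 0.28, adjusted p = 0.000645), and in contrast to most hepatocyte-made members control library 3 was the lowest of its group. Hc, the gene of C5, fell 3.21-fold to 308, 471 and 345 CPM in vehicle libraries, against 1070, 1074 and 1463 CPM in control libraries (SE of the log2 difference 0.24, adjusted p = 0.000304). C9, the subunit that polymerises into the pore, fell 3.08-fold to 239, 290 and 229 CPM, against 630, 706 and 996 CPM in control libraries (SE 0.29, adjusted p = 0.00161). C8g, the lipocalin chain of C8 that is not needed for lysis, moved least of the 6, by 2.17-fold (SE 0.15, adjusted p = 0.000183). None of these 6 genes had an overlap between vehicle and control libraries. C7, the terminal component that is not a member, was scarce and did not pass, at 1.88, 0.31 and 1.57 CPM in vehicle libraries, against 3.78, 2.50 and 1.47 CPM in control libraries, with overlap (log2 -1.03, SE 0.55, adjusted p = 0.152).

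The promoters of the terminal genes are shown because these genes fell together, and 5 of them are printed from 250 bases before to 50 after the start of the RefSeq transcript, in build GRCm38.p6, 5′ to 3′ on the gene's strand. Capitals mark matches, on either strand, to the letters of 4 motifs: GTTAAT of HNF1, TGTTTNC of FOXA, TTGCNNAA of C/EBP, all factors of hepatocytes, and GAGGAA of PU.1, a factor of myeloid cells.
C8b, chr4:104766067-104766366, plus strand: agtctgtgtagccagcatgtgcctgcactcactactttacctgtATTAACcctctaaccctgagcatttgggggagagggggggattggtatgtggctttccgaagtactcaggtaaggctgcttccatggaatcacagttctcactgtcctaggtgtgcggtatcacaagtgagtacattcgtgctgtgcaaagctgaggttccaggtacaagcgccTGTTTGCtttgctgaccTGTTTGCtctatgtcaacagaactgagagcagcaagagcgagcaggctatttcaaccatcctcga
C8a, chr4:104876349-104876648, minus strand: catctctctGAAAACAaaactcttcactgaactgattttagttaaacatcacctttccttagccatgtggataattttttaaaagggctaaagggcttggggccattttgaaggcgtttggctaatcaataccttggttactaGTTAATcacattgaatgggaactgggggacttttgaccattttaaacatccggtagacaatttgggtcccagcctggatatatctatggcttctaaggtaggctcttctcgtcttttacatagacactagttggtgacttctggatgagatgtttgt
C6, chr15:4726960-4727259, plus strand: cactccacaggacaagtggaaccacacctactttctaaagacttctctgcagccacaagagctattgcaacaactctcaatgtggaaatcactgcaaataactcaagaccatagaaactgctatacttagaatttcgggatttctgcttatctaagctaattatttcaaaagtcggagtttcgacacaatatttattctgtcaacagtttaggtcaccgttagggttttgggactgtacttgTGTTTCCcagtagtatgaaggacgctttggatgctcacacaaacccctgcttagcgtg
C9, chr15:6445096-6445395, plus strand: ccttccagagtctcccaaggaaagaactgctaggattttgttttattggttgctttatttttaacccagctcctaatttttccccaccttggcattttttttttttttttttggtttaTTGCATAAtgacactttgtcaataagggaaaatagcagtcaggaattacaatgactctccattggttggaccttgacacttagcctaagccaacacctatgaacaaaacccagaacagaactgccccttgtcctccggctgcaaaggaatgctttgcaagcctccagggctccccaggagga
Hc, chr2:35061363-35061662, minus strand: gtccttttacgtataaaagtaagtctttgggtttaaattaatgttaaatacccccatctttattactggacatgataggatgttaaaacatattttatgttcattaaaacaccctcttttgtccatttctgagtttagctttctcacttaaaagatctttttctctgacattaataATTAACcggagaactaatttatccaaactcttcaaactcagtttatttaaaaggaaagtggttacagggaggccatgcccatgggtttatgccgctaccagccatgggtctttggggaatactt
C8a carried a FOXA and an HNF1 match, C8b an HNF1 match and a repeated FOXA match, C6 a FOXA, C9 a C/EBP and Hc an HNF1 match. The promoter of C8g, not printed, held none of the 4 motifs. Of the 33 members 24 had a promoter in the RefSeq table, which left out C1qa, C2, C4a, C4b, Cfb, Cfi, Clu, Masp1 and Serping1. The HNF1 letters were found in 6 of the 14 hepatocyte-made genes with a promoter and in 8.24% of 27025 genes of the table. For FOXA these were 6 of 14 and 22.8%, and for C/EBP 4 of 14 and 12.2%. PU.1 letters were in 1 of 14, against 31.3% of all genes. A match of such short letters is a description of the sequence and shows no binding.

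Of the 7 recognition molecules 3 rose, 1 fell and 3 did not pass. C1q is made of A, B and C chains, encoded side by side on chromosome 4, and all 3 genes rose in TAA + vehicle livers. C1qa was at 122, 59.6 and 73.8 CPM in vehicle libraries 1 to 3, against 31.6, 29.6 and 31.4 CPM in control libraries, 2.76-fold higher (SE of log2 0.28, adjusted p = 0.00235 with edgeR). C1qb rose 2.69-fold (adjusted p = 0.00383) and C1qc 2.30-fold (adjusted p = 0.00604). In each of the 3 genes every vehicle library lay above every control library, and vehicle library 1 was by far the highest. By FPKM C1qc made up 16.3 to 18.2% of the sum of the 3 chains in vehicle libraries and 18.9 to 20.2% in control libraries. Its share was thus slightly lower with vehicle, without overlap. The promoters of C1qb and C1qc are printed for comparison with the terminal genes, in the same build and window.
C1qb, chr4:136886151-136886450, minus strand: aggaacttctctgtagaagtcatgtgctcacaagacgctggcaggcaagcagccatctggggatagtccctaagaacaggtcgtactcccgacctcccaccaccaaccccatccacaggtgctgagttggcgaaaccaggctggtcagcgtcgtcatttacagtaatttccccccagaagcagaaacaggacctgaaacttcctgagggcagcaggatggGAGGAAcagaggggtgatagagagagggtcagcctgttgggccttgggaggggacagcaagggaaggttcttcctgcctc
C1qc, chr4:136892865-136893164, minus strand: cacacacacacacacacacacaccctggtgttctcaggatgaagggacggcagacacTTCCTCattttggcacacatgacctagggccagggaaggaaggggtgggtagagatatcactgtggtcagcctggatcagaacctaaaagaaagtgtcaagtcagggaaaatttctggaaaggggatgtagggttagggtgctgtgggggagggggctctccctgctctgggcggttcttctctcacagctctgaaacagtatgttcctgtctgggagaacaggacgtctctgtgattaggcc
Both hold the PU.1 letters GAGGAA on one strand or the other and none of the 3 hepatocyte motifs. Of the 6 macrophage-made genes with a promoter 4 held the PU.1 letters, 1 the HNF1 letters, 1 the FOXA letters and 0 the C/EBP letters.

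C3ar1 and C5ar1, 2 receptors of the complement anaphylatoxins, also rose. C3ar1, the receptor of C3a, stood at 8.92, 3.44 and 5.05 CPM in vehicle libraries, against 2.18, 1.29 and 0.90 CPM in control libraries, a 3.94-fold difference (SE of log2 0.44, adjusted p = 0.00407). C5ar1, the receptor of C5a on neutrophils and macrophages, was at 6.07, 1.97 and 2.96 CPM, against 0.65, 1.21 and 0.90 CPM, and rose 4.01-fold (SE 0.51, adjusted p = 0.00902). C5ar2, the other C5a receptor and not a member, had a log2 difference of 0.09 (adjusted p = 0.875). The groups overlapped for neither C3ar1 nor C5ar1, and levels were low in control libraries, and the SEs of these 2 genes were the largest among the members. Cfp, the gene of properdin, which stabilises the alternative pathway convertase, did not pass: its libraries held 32.1, 20.2 and 21.5 CPM with vehicle, against 15.6, 17.9 and 15.4 CPM in controls (log2 0.59, SE 0.26, adjusted p = 0.0895). It was called higher with scaling by totals (adjusted p = 0.0114), with the 2 groups alone (0.0282) and without sulodexide library 1 (0.028). Fcna, the gene of the lectin ficolin A, had a log2 difference of 0.07 (SE 0.16, adjusted p = 0.77), and its libraries overlapped.

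Markers of macrophages moved with these genes. Of the 5 markers of all macrophages 4 rose. Of 6 Kupffer cell markers Marco alone rose, while the defining marker Clec4f had a log2 difference of 0.26 (adjusted p = 0.338). The 6 markers of recruited monocytes and macrophages summed to 189 to 475 CPM in vehicle libraries and 29.9 to 41.6 CPM in control libraries. Most of each sum was Spp1, at 173 to 429 CPM with vehicle and 27.1 to 39.1 CPM in controls. Which cells made the Spp1 message was not tested. Of the others, Gpnmb averaged 0.03 CPM and Cx3cr1 0.44 CPM in controls, where Trem2 was at 0 in library 2. The neutrophil markers summed to 10.4 to 51.2 CPM in vehicle libraries, against 2.11 to 3.01 CPM in control libraries, where Retnlg and Ly6g were at 0 throughout and Ngp in libraries 1 and 3. Markers near 0 in controls passed the filter on low counts through the TAA libraries. No count of neutrophil or recruited macrophage markers that rose is therefore given as support. The C1q sum alone was 163 to 353 CPM in vehicle libraries and 92.5 to 94.5 CPM in control libraries. Divided by the sum of all 5 markers of the macrophage list, it was 1.36 ± 0.06 in vehicle libraries and 0.48 ± 0.11 in control libraries, with no overlap (SD, n = 3 each, exact permutation test, two-sided p = 0.1, the smallest possible). Divided by Adgre1, Csf1r and Cd68 alone, 3 markers picked from the list without a fixed rule, it was 2.0 ± 0.06 and 1.93 ± 0.28 and the groups overlapped. The ratio thus depended on the markers used.

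**Figure D2:**
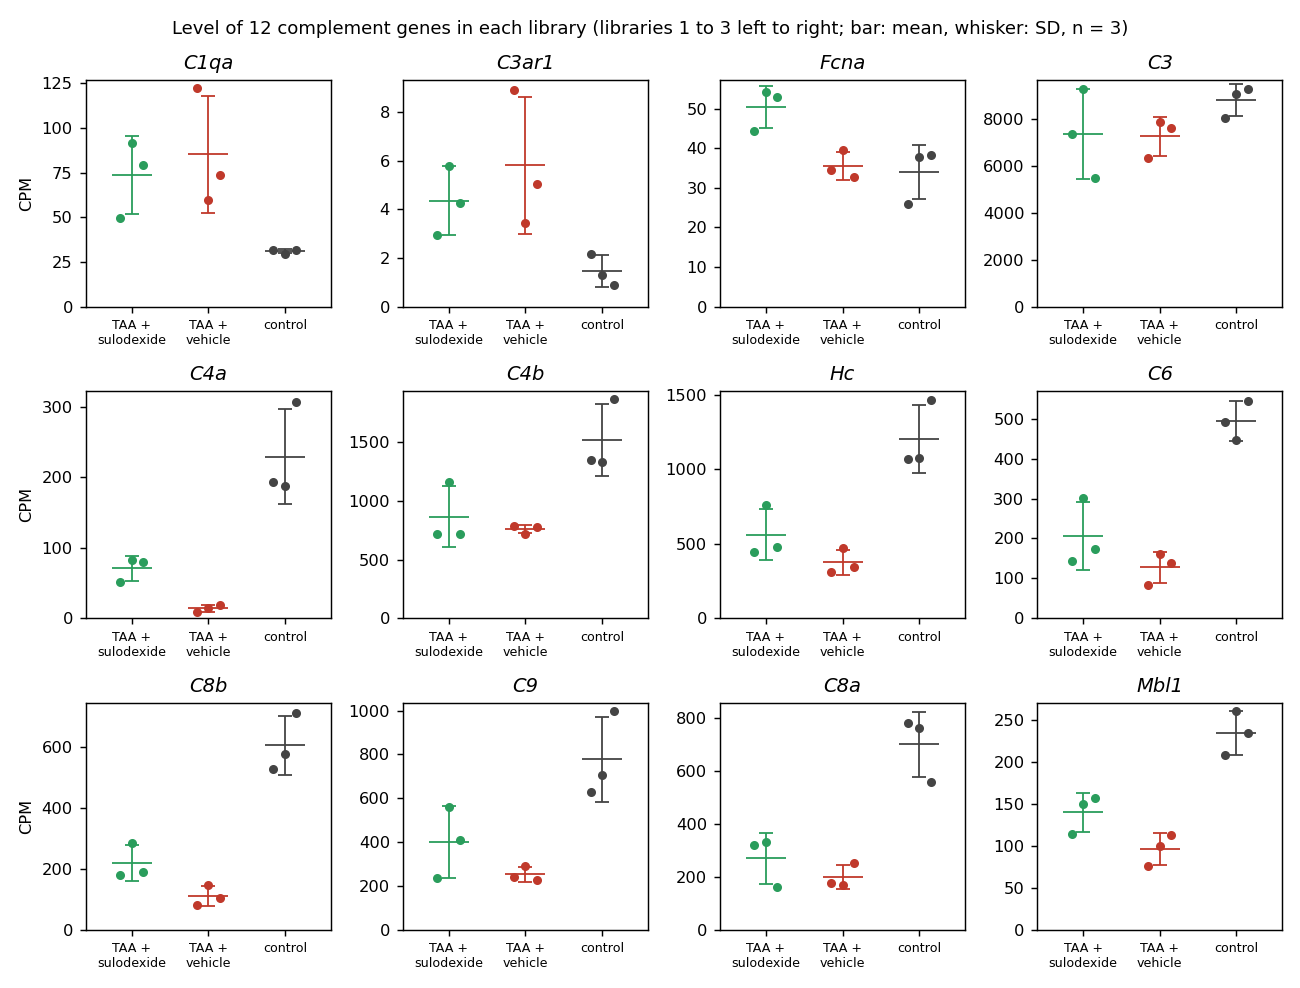
Level of selected complement genes in each of the 9 libraries, in CPM after TMM scaling on linear axes from 0, with the groups TAA + sulodexide, TAA + vehicle and control from left to right, a line at each group mean and whiskers of 1 SD (n = 3). C4a is lowest in the vehicle libraries, at 9.14 to 18.6 CPM, and C1qa is lowest in the control libraries, at 29.6 to 31.6 CPM.

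Among the lectins of hepatocytes, Mbl1 and Mbl2, the genes of the 2 mouse mannose-binding lectins, behaved differently. Mbl1 fell 2.45-fold to 75.4, 99.9 and 113 CPM in vehicle libraries, against 209, 261 and 235 CPM in control libraries (SE of log2 0.18, adjusted p = 0.000208). Mbl2 stood at 359, 398 and 348 CPM in vehicle libraries, against 384, 391.7 and 346 CPM in control libraries, and the groups overlapped (log2 -0.02, SE 0.18, adjusted p = 0.935). The difference between the 2 genes' responses was not tested. Colec11, a collectin of mixed source, had a log2 difference of 0.46 (SE 0.22, adjusted p = 0.113), with no overlap between groups, and was called higher in 4 of the alternative fits.

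The proteases of the classical and lectin pathways were lower in 4 of 5 genes. Masp2, the main C4-cleaving protease of the lectin pathway, fell 2.26-fold to 109, 139 and 154 CPM in vehicle libraries, against 285, 300 and 322 CPM in control libraries (SE of log2 0.14, adjusted p = 0.000114). C1ra, a protease of the C1 complex, fell 1.76-fold, Masp1, which activates Masp2, 1.81-fold, and C2, the catalytic part of the classical convertase, 1.81-fold, with adjusted p of 0.00112, 0.00306 and 0.0108 in that order. None of the 4 overlapped between groups, but with scaling by totals Masp1 and C2 were not called. C1s1, the partner of C1r, did not pass (log2 -0.45, adjusted p = 0.401), with 329, 153 and 363 CPM in vehicle libraries and 265, 603 and 283 CPM in control libraries. Its groups overlapped, control library 2 stood far above the others, and its SE of 0.40 was the largest among the hepatocyte-made genes.

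C4 and C3 are the central, thioester-containing proteins that attach to surfaces. C4a had the largest fall of all members: it was at 9.14, 14.99 and 18.6 CPM in vehicle libraries 1 to 3, against 194, 188 and 308 CPM in control libraries 1 to 3. That is a 16.2-fold difference (log2 -4.01, SE 0.33, adjusted p = 2.03e-05 with edgeR). In mice C4a is known as sex-limited protein, a C4 relative that in several strains is found mainly in male serum. C4b, the gene of classical C4, was at 785, 720 and 773 CPM in vehicle libraries and 1352, 1334 and 1871 CPM in control libraries, 1.999-fold lower (SE 0.20, adjusted p = 0.00263). The 2 genes lie near each other on chromosome 17 (C4a 34809092 to 34823464 and C4b 34728380 to 34743882, minus strand, GRCm38), and C4a is typed as a processed transcript in GENCODE M21. They are close copies, so how reads were divided between them is uncertain, and the way multiply mapped reads were counted is not given in the sources used here.

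C4a took 1.15, 2.04 and 2.35% of the counts of both C4 genes in vehicle libraries 1 to 3, against 12.5, 12.3 and 14.1% in control libraries 1 to 3. The exact 95% binomial intervals, which cover counting error only, ran from 0.985 to 2.61% over the vehicle libraries and from 11.8 to 14.5% over the control libraries. The means were 1.85 ± 0.62% and 13.0 ± 0.99% (SD, n = 3 each), and the exact two-sided permutation p was 0.1, the smallest that 3 against 3 allows. Xist, transcribed from the inactive X chromosome of females, was at most 0.31 CPM in any library, and the Y-linked Ddx3y was detected in every library, at 9.46 to 16.5 CPM with sulodexide, 11.9 to 17.6 CPM with vehicle and 20.5 to 39.9 CPM in controls. Ddx3y fell with the other 3 tested Y-linked genes in TAA + vehicle livers, and the part of sex-linked or sex-dependent expression in the C4a values was not tested.

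C3 had the highest level of the members and did not pass. It stood at 6332, 7874 and 7616 CPM in vehicle libraries, against 8045, 9095 and 9293 CPM in control libraries (log2 -0.28, SE 0.19, adjusted p = 0.261). The groups did not overlap on this scale, but scaling by totals gave a log2 difference of 0.12, of the other sign. Cfb, the alternative pathway counterpart of C2, had a log2 difference of -0.44 (SE 0.22, adjusted p = 0.13) and -0.03 with scaling by totals.

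Of the soluble regulators 3 of 5 fell. C4bp, a cofactor for C4b cleavage, fell 1.41-fold (adjusted p = 0.00994), Cfi, the protease that cleaves C3b and C4b, 1.35-fold (adjusted p = 0.027) and Serping1, the C1 inhibitor, 1.69-fold (adjusted p = 0.00705). None of these 3 passed with scaling by totals, and Cfi was also not called without control library 2 (adjusted p = 0.0685), control library 3 (0.0798) or vehicle library 1 (0.0897). Clu and Vtn, whose products bind terminal complexes and keep them from membranes, did not pass, with log2 differences of 0.19 (SE 0.17) and -0.35 (SE 0.17). With scaling by totals Clu was called higher (log2 0.59, adjusted p = 0.00591). Cd59a, a membrane inhibitor of C9 polymerisation, was the one membrane regulator that fell, to 11.6, 13.5 and 10.6 CPM in vehicle libraries, against 27.4, 25.7 and 23.7 CPM in control libraries (2.15-fold, SE of log2 0.15, adjusted p = 0.000203). Cd55 and Cr1l, which limit the C3 convertases, did not pass, with log2 differences of -0.21 and -0.29.

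Other hepatocyte genes gave mixed values beside these falls. Of the 7 hepatocyte markers tested Apoa1, Serpinc1 and Cps1 fell, while Alb and Hnf4a had log2 differences of -0.0013 and -0.0064. The summed markers were at 82590 to 100000 CPM in vehicle libraries and 96240 to 117600 CPM in control libraries. The part of hepatocyte number in the falls of the complement genes was not tested. Leaving out the 9 hepatocyte-made genes that other liver cells also make, 11 of 13 fell and none rose.

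**Figure D3:**
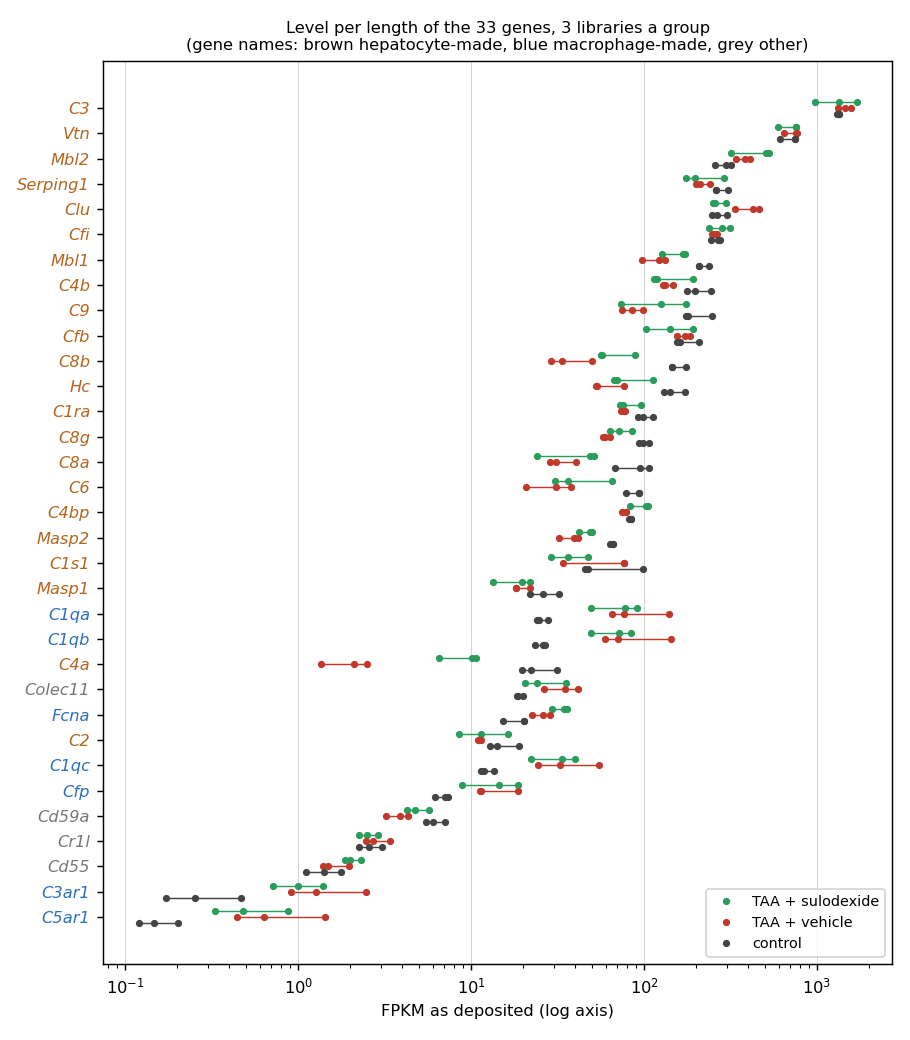
FPKM of each complement gene on a log axis, with 1 point per library, a line from the lowest to the highest library of each group, and the groups TAA + sulodexide, TAA + vehicle and control from top to bottom in each row. C3 has the highest mean in each group, 1450 in vehicle and 1330 in control libraries, and C5ar1 the lowest, 0.84 and 0.16.

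Levels of different members can be compared only roughly, since FPKM divides by a length set for each gene that need not be its transcript length. The length implied by counts and FPKM was 3389 bases for Vtn, longer than its whole locus (78499091 to 78502324 on chromosome 11). The order of the genes given here holds only for these lengths. In FPKM, which is scaled by library totals and length, C3 averaged 1340 ± 360 in sulodexide libraries, 1450 ± 125 in vehicle libraries and 1330 ± 25.4 in control libraries (SD, n = 3 each). Vtn came next in each group, at 704 ± 94.7 FPKM with sulodexide, 724 ± 65.8 FPKM with vehicle and 698 ± 77.7 FPKM in controls. C1qa moved up to rank 10 of 33 with vehicle (93.6 ± 40.0 FPKM), against rank 21 in controls (25.5 ± 2.06 FPKM), and C8b moved down to rank 19 (37.6 ± 11.2 FPKM), against rank 11 (155 ± 17.3 FPKM). C4a stood at rank 30 with vehicle (1.99 ± 0.59 FPKM), against rank 23 in controls (24.4 ± 6.20 FPKM). Most neighbours in the order could not be separated: the libraries overlapped for 24 of 32 neighbouring pairs with sulodexide, 23 with vehicle and 22 in controls.

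In TAA livers given sulodexide few complement messages passed the test against vehicle. Of the 33 members 2 rose, C4a and C8b, and none fell, against 1.39% of all tested genes that rose and 3.41% that fell (4.8% in either direction). At an unadjusted p below 0.05, 13 members were higher and 1 was lower, where 9.04% and 11.3% of all tested genes were. The DESeq2 test called 4 higher and 0 lower, against 2.83% and 5.5% of all genes. With scaling by totals 1 member rose and 1 fell (0.664% and 5.06% of all genes), and without sulodexide library 1 the genes that rose were C4a, Mbl2, C9 and C4bp. Both genes that rose are hepatocyte-made. The median log2 difference was 0.33 over the 22 hepatocyte-made genes and -0.21 over the 7 macrophage-made genes, against 0.02 over all tested genes. None of the macrophage-made genes passed with edgeR, 1 (Fcna) was higher at an unadjusted p below 0.05, and DESeq2 called none. In 10 of the 33 members the sulodexide and vehicle libraries did not overlap, and the same held for 24.2% of all tested genes.

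C4a had the larger of the 2 rises. Its sulodexide libraries 1 to 3 held 50.7, 82.3 and 80.5 CPM, against 9.14, 14.99 and 18.6 CPM in vehicle libraries 1 to 3. All sulodexide libraries lay above all vehicle libraries, by 5.004-fold between the groups (log2 2.32, SE 0.31, adjusted p = 0.0082). The call held in each alternative fit, with log2 values of 2.08 to 2.56 and a highest adjusted p of 0.0338 without sulodexide library 2. Of the counts of both C4 genes C4a took 6.59, 6.60 and 10.1% with sulodexide, and 1.15, 2.04 and 2.35% with vehicle (means 7.76 ± 2.02% and 1.85 ± 0.62%, SD, n = 3 each, exact permutation p = 0.1, the smallest possible). C4b stood at 719, 1164 and 716 CPM with sulodexide, on both sides of its vehicle range, and did not pass (log2 0.19, SE 0.20, adjusted p = 0.654).

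**Figure D4:**
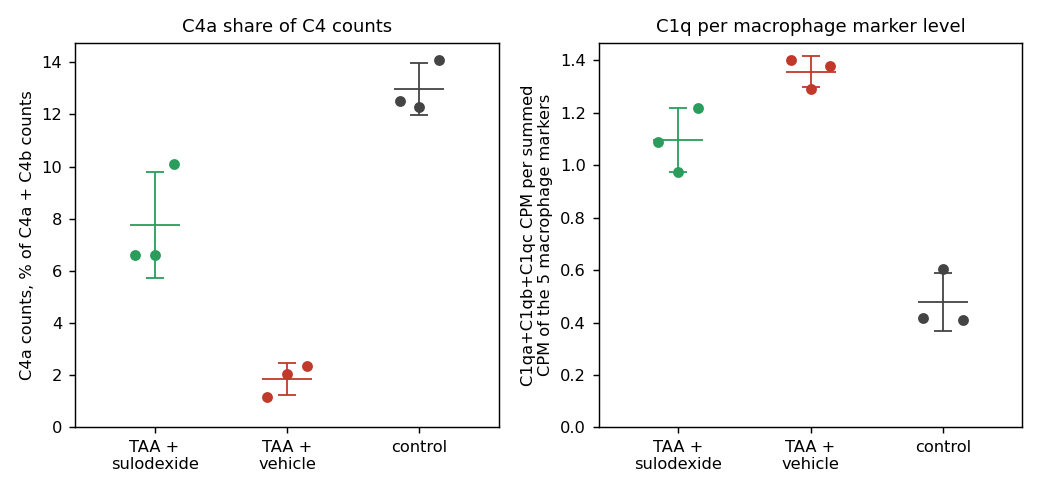
Share of C4a in the counts of C4a and C4b in percent, and the C1q sum divided by the sum of 5 macrophage markers, for each library of the TAA + sulodexide, TAA + vehicle and control groups, with a line at each mean and bars of 1 SD over 3 libraries. The C4a share is 6.59 to 10.1% with sulodexide, 1.15 to 2.35% with vehicle and 12.3 to 14.1% in controls, and the C1q ratio is 0.976 to 1.22 with sulodexide, 1.29 to 1.40 with vehicle and 0.408 to 0.605 in controls.

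C8b rose 1.97-fold to 181, 286 and 188 CPM in sulodexide libraries, against 81.3, 148 and 104 CPM in vehicle libraries (log2 0.98, SE 0.24, adjusted p = 0.0466). The groups did not overlap, but the call is fragile. It was lost with scaling by totals (adjusted p = 0.0575), with the 2 groups fitted alone (0.0892), without control library 1, 2 or 3 (0.0634, 0.0717 and 0.0555), without vehicle library 1 or 3 (0.143 and 0.145), and without sulodexide library 1, 2 or 3 (0.0526, 0.14 and 0.0743). The log2 value stayed between 0.74 and 1.10 in these fits. The other terminal genes among the members had positive values that did not pass, with log2 differences of 0.69 for C6, 0.67 for C9, 0.58 for Hc, 0.45 for C8a and 0.42 for C8g. C7, with 0.41, 0.23 and 0.53 CPM in sulodexide libraries, had a log2 difference of -1.68 (SE 0.65, adjusted p = 0.172).

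Other members had separated libraries without passing, where no overlap held in 10 of the 33 members and in 24.2% of all tested genes. Among them Mbl1, Masp2, C8g and Cd55 had log2 differences of 0.55, 0.45, 0.42 and 0.49 (edgeR adjusted p = 0.101, 0.105, 0.134 and 0.148). Mbl1 was called with the replicate block (adjusted p = 0.0307). C4bp was at 589, 746 and 745 CPM with sulodexide, against 463, 511 and 537 CPM with vehicle (log2 0.46, SE 0.13, adjusted p = 0.0704, and 0.0118 with DESeq2). Cd59a was at 16.4, 19.8 and 15.1 CPM, against 11.6, 13.5 and 10.6 CPM (log2 0.52, SE 0.15, adjusted p = 0.0723, and 0.0457 with DESeq2). Fcna held 44.3, 54.1 and 53.0 CPM, against 34.5, 39.5 and 32.7 CPM (log2 0.50, SE 0.16, adjusted p = 0.105). Clu went the other way, at 1366, 1634 and 1426 CPM with sulodexide, against 2027, 1675 and 2411 CPM with vehicle (log2 -0.47, SE 0.17, adjusted p = 0.146), and was called lower with scaling by totals (adjusted p = 0.0346).

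C1qa, C1qb and C1qc overlapped between sulodexide and vehicle. C1qa was at 49.4, 91.8 and 79.5 CPM with sulodexide, against 122, 59.6 and 73.8 CPM with vehicle (log2 -0.21, SE 0.27, adjusted p = 0.716). C3ar1 and C5ar1 had log2 differences of -0.42 (SE 0.39) and -0.43 (SE 0.45). Intervals of this width do not show that the groups were alike. The C1q sum divided by the 5 macrophage markers was 1.10 ± 0.12 with sulodexide and 1.36 ± 0.06 with vehicle, with no overlap (SD, n = 3 each, exact permutation p = 0.1, the smallest possible). Divided by the 3 picked markers it was 1.87 ± 0.50 and 2.0 ± 0.06, with overlap. Of the 6 recruited macrophage markers Cx3cr1 and Spp1 fell, of the neutrophil markers none, and of the Kupffer markers none of 6. Their sums were 47.5 to 101, 6.98 to 16.1 and 209 to 461 CPM with sulodexide, against 189 to 475, 10.4 to 51.2 and 209 to 321 CPM with vehicle. Most of the recruited macrophage sum was Spp1, at 35.9 to 90.9 CPM with sulodexide and 173 to 429 CPM with vehicle. Spp1 fell 5.41-fold, and all 4 cholangiocyte markers fell too, such as Krt19 by 5.42-fold. Which cells made the Spp1 message was not tested. The part of macrophages and neutrophils in the complement values was not tested either.

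Spread within a group differed by class. The median coefficient of variation of the hepatocyte-made genes was 25.3% with sulodexide, 12.3% with vehicle and 15.2% in controls, and that of the macrophage-made genes was 29.7% with sulodexide, 38.6% with vehicle and 8.44% in controls. Sulodexide library 2 was the highest of its group in 19 of 22 hepatocyte-made and 7 of 7 macrophage-made genes, and library 1 was the lowest in 15 of 22 and 7 of 7. Vehicle library 1 was highest of its group in 6 of 7 macrophage-made genes and lowest in 15 of 22 hepatocyte-made genes. Control library 3 was highest in 16 of 22 hepatocyte-made genes. Within the sulodexide group the 2 classes therefore had the same extreme libraries, whereas in vehicle library 1 they lay at opposite ends.

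Against control livers, which are the same 3 libraries as above, livers given TAA and sulodexide still had lower hepatocyte-made and higher macrophage-made messages. Of the 33 members 6 rose and 14 fell, where 11.2% and 11.4% of all tested genes did (22.6% in either direction). With scaling by totals 8 rose and 8 fell (24.2% and 5.53% of all genes). Without sulodexide library 1, 8 rose and 9 fell (1164 and 1177 of all 14031 genes tested in that fit). Of the hepatocyte-made genes 13 of 22 fell and none rose, with a median log2 difference of -0.71. C4a was 3.23-fold lower (adjusted p = 0.0033), C8b 2.77-fold lower (adjusted p = 0.00221), and all 6 terminal members fell. The 3 regulators C4bp, Cfi and Vtn did not pass, at log2 -0.03, -0.17 and -0.25. In 21 of the 33 members, and in 42% of all tested genes, the libraries of the 2 groups did not overlap.

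Of the macrophage-made genes 6 of 7 rose against control. C1qa was 2.38-fold higher (adjusted p = 0.0111), C1qb 2.25-fold (adjusted p = 0.0193), C1qc 2.18-fold (adjusted p = 0.0166), C3ar1 2.95-fold (adjusted p = 0.0269), C5ar1 2.99-fold (adjusted p = 0.0498) and Fcna 1.48-fold (adjusted p = 0.0276). Most of these calls were lost in some fits that left out 1 library, in which fewer of all tested genes also rose. Of the 7 genes 2 passed when control library 1, 2 or 3 was left out, 1 without sulodexide library 2 or 3, and 7 without sulodexide library 1. Of all tested genes 1008, 928 and 953 rose without control library 1, 2 or 3, against 1537 with all libraries. Without sulodexide library 1, 2 or 3 these were 1164, 1141 and 1406. Of the 6 Kupffer markers 4 rose here, among them Clec4f to 125 ± 41.1 CPM with sulodexide, against 65.3 ± 6.47 CPM in controls (SD, n = 3 each, edgeR adjusted p = 0.0103). The C1q sum divided by the 5 macrophage markers was 1.10 ± 0.12 with sulodexide and 0.48 ± 0.11 in controls, with no overlap (SD, n = 3 each, exact permutation p = 0.1, the smallest possible), whereas with the 3 picked markers it was 1.87 ± 0.50 and 1.93 ± 0.28 and overlapped.

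Beyond the 33, a list of 28 other complement genes had 20 that were tested. In TAA + vehicle against control 3 rose and 10 fell, against 23.1% and 20.4% of all tested genes. The falls included Crp, a pentraxin that binds C1q, at 159 ± 8.06 CPM with vehicle and 540 ± 45.2 CPM in controls (SD, n = 3 each, 3.39-fold, adjusted p = 4.8e-06 with edgeR). The C1r-like protease C1rl fell 3.20-fold (adjusted p = 6.57e-06), and Cpn2, a subunit of the carboxypeptidase that inactivates anaphylatoxins, 3.53-fold (adjusted p = 1.13e-05). Susd4, a membrane inhibitor named after its values were seen, had the largest fall of the list, to 2.06 ± 1.35 CPM with vehicle, against 44.7 ± 2.57 CPM in controls (21.96-fold, adjusted p = 0.000321). In TAA + sulodexide against TAA + vehicle 4 rose and none fell, against 1.39% and 3.41% of all tested genes. Those that rose included Crp 1.67-fold (edgeR adjusted p = 0.0114), C1rl 1.48-fold (0.0269) and the liver collectin Colec10 1.76-fold (0.0328). In TAA + sulodexide against control 2 rose and 9 fell, against 11.2% and 11.4% of all tested genes. Those that fell included C1rl 2.16-fold, Cpn2 2.38-fold, Crp 2.03-fold and Cd59b 3.46-fold. Of the genes not tested, C1s2 and Cd55b had 0 counts in every library, and Cfd, the gene of factor D, which is made mainly by fat cells, had 0 counts in all TAA libraries and at most 1.02 CPM in controls.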

How the data were processed

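The 9 liver libraries were analysed from the counts per gene that the authors deposited, and levels per length from the authors' deposited FPKM values. The submitters' processing notes name HISAT2 2.0.4, StringTie 1.3.0 and the builds mm10 and GRCm38.p4. Which program counted the reads, with which strand setting and with what treatment of multiply mapped reads, is not given in the sources used here. Reads of overlapping genes (C2 and Cfb with the readthrough gene Gm20547, C8g with Fbxw5, Masp2 with Tardbp) and of the copies C4a and C4b may therefore be divided wrongly. Per the labels, mRNA was purified from total RNA of whole liver.

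The members, the lists and the class of each gene were chosen with earlier results of these data known. Genes kept by filterByExpr of edgeR 4.0.16 (minimum count 10) entered 1 model over all 9 libraries in R 4.3.3, with TMM scaling and without a block, and each contrast was assessed by the robust quasi-likelihood F-test. P-values were adjusted over 13701 genes by the Benjamini-Hochberg method. The steps were tested on simulated data. Alternatives were scaling by DESeq2 size factors or by totals, no filter, DESeq2 1.42.0, the 2 groups alone, a replicate block and each library left out in turn. All 33 members are accounted for. Of the other complement genes, up to 6 per comparison were named by p-value, and of each marker list the defining markers, except some that are not reported here. Ratios of libraries were compared by exact permutation tests (scipy 1.17.1). No 2 libraries of a group held identical counts, with at most 3.03% of tested genes equal. Promoters are from RefSeq, GRCm38.p6, and coordinates of genes are those of the deposited table.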

Additional observations from a re-analysis of the deposited data

How the results depend on the processing

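Over 3 comparisons and the alternatives run, 1385 of 1485 values of single members kept their side of the threshold, 70 lost a call and 30 gained one. Of all these values 37 had another sign than as reported, 0 of them in a member that had passed. Scaling by library totals moved the median log2 difference of all genes to 0.41 in TAA + vehicle against control, -0.12 in TAA + sulodexide against TAA + vehicle and 0.27 in TAA + sulodexide against control. In that scaling 9 members rose and 12 fell with vehicle against control (hepatocyte-made 1 and 11, macrophage-made 7 and 0), 1 rose and 1 fell with sulodexide against vehicle (both hepatocyte-made), and 8 fell with sulodexide against control (hepatocyte-made 1 higher and 8 lower). With sulodexide against vehicle, members higher numbered 4 with DESeq2, 1 with the 2 groups alone and 4 with the replicate block. Among all tested genes 388 of 13701, 84 of 13560 and 199 of 13701 were higher in these fits. Hepatocyte-made genes higher numbered 1 with the 2 groups alone, 4 with the block, and 1 without the genes that other cells also make. The causes of these changes other than the scaling and the smaller number of genes or libraries were not tested.

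Leaving out 1 library at a time gave 5 to 6 members higher and 16 to 18 lower with vehicle against control, 1 to 4 higher and 0 lower with sulodexide against vehicle, and 1 to 8 higher and 9 to 16 lower with sulodexide against control. For hepatocyte-made genes these were 0 higher and 15 to 17 lower, 1 to 4 and 0, and 0 to 1 and 9 to 15. For macrophage-made genes they were 5 to 6 higher, 0, and 1 to 7, with 0 lower throughout. Over all tested genes, 13838 to 14099 in these fits, 2594 to 3309 rose and 2236 to 3119 fell with vehicle against control. With sulodexide against vehicle 44 to 189 of all genes rose and 95 to 670 fell, and with sulodexide against control 928 to 1621 and 1105 to 1577. No pairing by replicate number was visible: deviations of same-numbered libraries correlated at -0.07 to 0.142, and those of differently numbered libraries at -0.152 to 0.152. With 3 libraries a group, a weak pairing could go unseen. With the block 5 members rose and 18 fell with vehicle against control, and 4 rose and 14 fell with sulodexide against control. Of all 13701 genes tested with the block, 3022 rose and 2744 fell in the former comparison and 1450 and 1534 in the latter. C3ar1 and C5ar1 are limited by depth, with control levels of at most 2.18 CPM. The C1q ratio of sulodexide and control libraries turned round with the 3 picked markers, with a difference of -0.06, against 0.62 with the whole list, an alternative chosen after the data were seen.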
